A study of Mus musculus with 4 samples.

Results

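A set of 40 genes of protein folding in the endoplasmic reticulum (ER) and of the unfolded protein response was followed in single cells of the mouse ascending aorta. They were chosen by name, with earlier results of these data known, out of the 18112 genes that the 3 count files share. All were found in each file. By role they are 11 chaperones, 5 disulfide enzymes, 9 collagen folding and modifying enzymes, 8 genes of transport and quality control, and 7 stress sensors and transcription factors. Their levels were read in smooth muscle cells, fibroblasts and macrophages, across SHF_Baseline, SHF_AngII and CNC_AngII.

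Secreted and membrane proteins fold in the ER, where chaperones hold unfolded chains, protein disulfide isomerases form their disulfide bonds, and a dedicated set of enzymes hydroxylates and assembles procollagen. When unfolded protein builds up, the sensors IRE1 (Ern1), PERK (Eif2ak3) and ATF6 signal to the nucleus, where the factors XBP1, ATF4 and cleaved ATF6 raise genes for folding, export and degradation. Cells of the aortic wall that secrete collagen, fibroblasts above all and smooth muscle cells to a lesser degree, carry a large load through this pathway.

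The mice were male and of the Mef2c-mTmG strain, which marks cells by lineage. Aortas were taken untreated (baseline) or after infusion of angiotensin II (AngII) for 3 days, and living cells were sorted by lineage before droplet capture. SHF stands for the second heart field, the cells that the Mef2c label marks, and the labels do not spell out CNC, the other lineage group. Each of the 3 groups is 1 library, the number of mice behind a library is not stated, and CNC_Baseline was not analysed here.

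The libraries held 9412 to 11166 cell barcodes and 92474476 to 150954701 unique molecular identifiers (UMIs), and any pair of libraries shared 29 to 34 barcodes. Smooth muscle cells were gated by at least 5 UMIs of Myh11 and 0 of Pdgfra, fibroblasts by at least 1 UMI of Pdgfra and at most 2 of Myh11, and macrophages by at least 10 summed UMIs of C1qa, C1qb and Lyz2 with fewer than 5 of Myh11. This gave 2257, 4652 and 6373 smooth muscle cells in SHF_Baseline, SHF_AngII and CNC_AngII, 3937, 2637 and 835 fibroblasts in the same order, and 1755 macrophages in CNC_AngII. SHF_Baseline and SHF_AngII held 7 and 11 macrophages, too few to be compared. The 6 smooth muscle markers summed to between 55638.5 and 63038 CPM (UMIs of a gene per 1000000 UMIs of the class) in smooth muscle cells and at most 4018 CPM elsewhere. The 6 fibroblast markers summed to at least 9516 CPM in fibroblasts and at most 1023 CPM elsewhere, and the 8 macrophage markers to 31546 CPM in macrophages and at most 297 CPM elsewhere. These lists include the gate genes (Myh11, Pdgfra, C1qa, C1qb and Lyz2), so the gates fix part of each sum. Outside the gate genes, Acta2 was at least 29566 CPM in smooth muscle cells and at most 2012 CPM elsewhere. Dcn was at least 4673 CPM in fibroblasts and at most 308 CPM elsewhere. Cd68 was 1060 CPM in macrophages and at most 10.6 CPM elsewhere.

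Promoter sequences are shown for the members that carry a known stress element, because the chaperones with such an element and the collagen enzymes without one are set side by side in the results. RefSeq promoters (build GRCm38.p6, 250 bases before to 50 after the start) were found for 34 of the 40 members, and the 250 bases before the start were searched on both strands. The ER stress response element (ERSE, the letters CCAAT and CCACG with 9 bases of any kind between them), the site of ATF6 with the factor NF-Y, stood in 8 of these 34 promoters and in 37 of all 32851 promoters (0.113%). It stood in 6 of the 9 matched chaperones, 1 of 5 disulfide enzymes, 1 of 7 genes of transport and quality control, and none of the 7 matched collagen enzymes or the 6 matched sensors and factors. The matches follow on the strand of each gene with the element in capitals, which reads CGTGG to ATTGG where it lies on the opposite strand.
Hspa5 (chr2:34772013-34772055, plus strand): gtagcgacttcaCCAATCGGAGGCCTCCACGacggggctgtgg
Hsp90b1 (chr10:86705626-86705668, minus strand): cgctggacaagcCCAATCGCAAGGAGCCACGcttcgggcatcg
Hsp90b1 (chr10:86705521-86705563, minus strand): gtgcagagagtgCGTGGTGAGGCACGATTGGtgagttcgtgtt
Calr (chr8:84847063-84847105, minus strand): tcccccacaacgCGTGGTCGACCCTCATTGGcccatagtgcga
Canx (chr11:50325788-50325830, minus strand): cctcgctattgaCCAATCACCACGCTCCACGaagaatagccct
Dnajc3 (chr14:118937815-118937857, plus strand): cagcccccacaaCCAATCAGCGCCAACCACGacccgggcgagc
Creld2 (chr15:88819508-88819550, plus strand): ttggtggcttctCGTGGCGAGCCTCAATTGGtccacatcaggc
Pdia6 (chr12:17266479-17266521, plus strand): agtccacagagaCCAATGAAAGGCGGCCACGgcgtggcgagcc
Syvn1 (chr19:6046520-6046562, plus strand): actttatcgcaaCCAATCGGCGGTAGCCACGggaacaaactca

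Without its last base the element was found in 105 promoters (0.320%), among them 11 of the 34 members, adding Pdia3, Pdia4 and Herpud1. Herpud1 also held the related ERSE-II (ATTGG and CCACG with 1 base between them), present in 10 of all promoters (0.0304%). Kdelr3 held the core of the XBP1 element (TGACGTGG), present in 185 promoters (0.563%). The composite element of C/EBP and ATF4 (TGATGNAAN) stood in 1129 promoters (3.44%), among the members in Herpud1 alone. These matches are letters in a window and were not tested for binding, and capitals again mark the element.
Pdia3 (chr2:121413861-121413901, plus strand): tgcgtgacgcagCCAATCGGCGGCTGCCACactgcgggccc
Pdia4 (chr6:47813590-47813631, minus strand): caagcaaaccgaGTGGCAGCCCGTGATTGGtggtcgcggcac
Herpud1 (chr8:94386365-94386399, plus strand): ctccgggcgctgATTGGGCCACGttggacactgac
Kdelr3 (chr15:79516366-79516397, plus strand): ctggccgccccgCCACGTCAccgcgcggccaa

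All 40 members together took 5092 CPM in smooth muscle cells of SHF_Baseline, 7176 CPM in SHF_AngII and 7364 CPM in CNC_AngII. In fibroblasts they took 9204, 12757.5 and 12421 CPM in the same order, and in macrophages of CNC_AngII 6064 CPM. The members' sum was higher in fibroblasts than in smooth muscle cells in every library and higher in both AngII libraries than in SHF_Baseline. Counting is precise at these depths, and every interval given is a 95% interval for counting error only. With 1 library per group there is no replicate error and no test, and the making of a library cannot be told apart from its lineage or treatment.

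**Figure D1:**
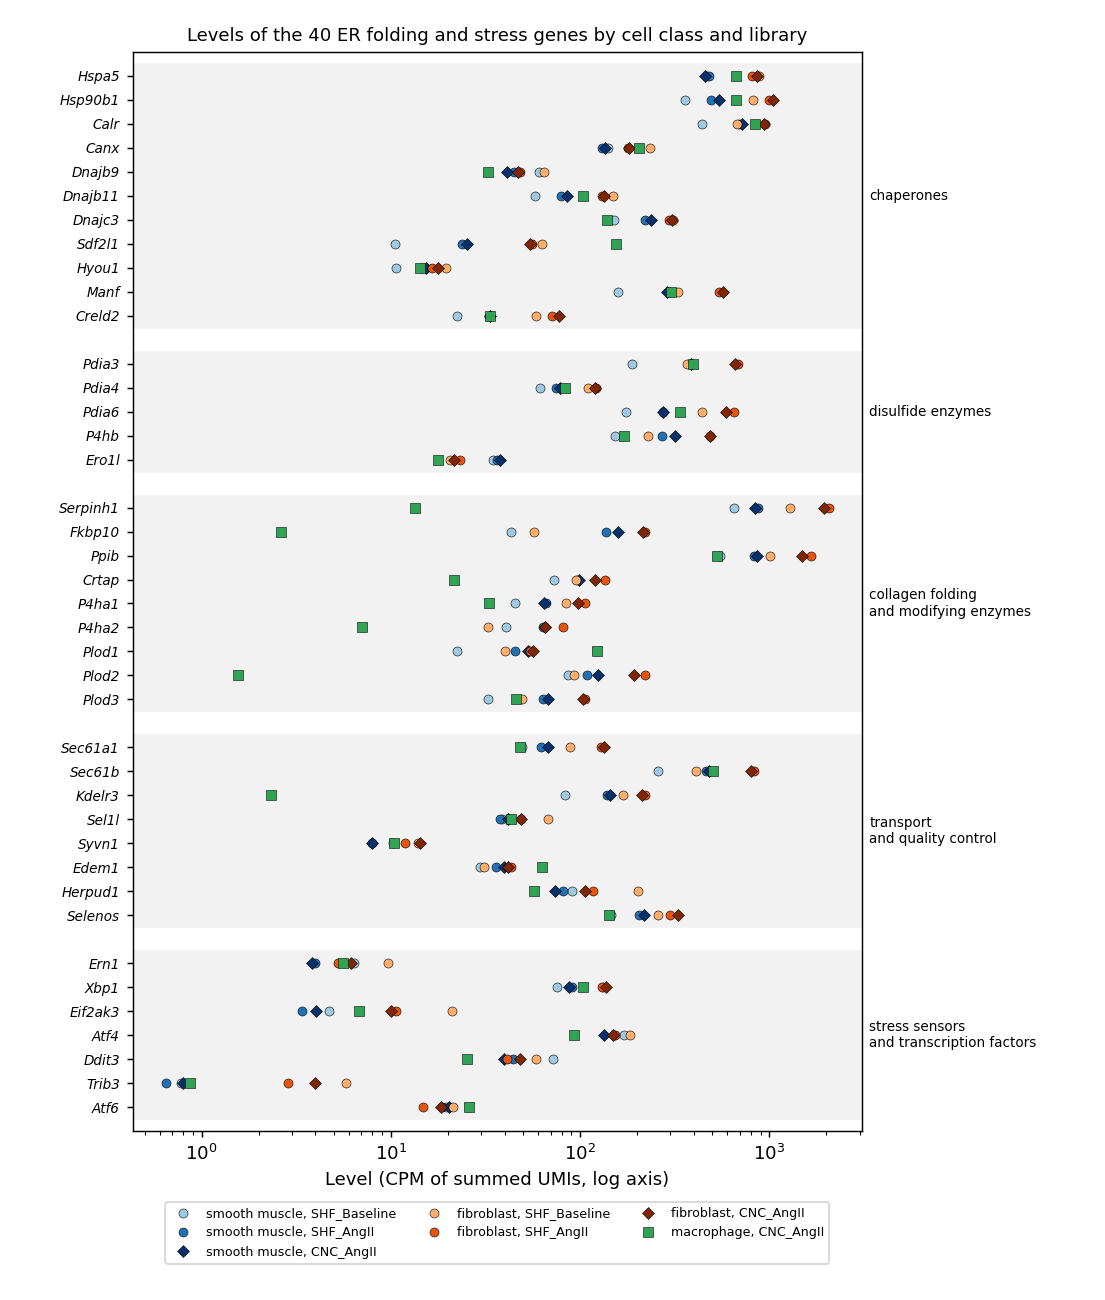
Level of each of the 40 genes (CPM of summed UMIs, log axis) in each cell class and library, grouped by role. Points are smooth muscle cells (blue), fibroblasts (orange) and macrophages (green), and circles, diamonds and squares separate the libraries. Serpinh1, Fkbp10, Plod2 and Kdelr3 lie far lower in macrophages than in the other classes, at 13.5, 2.61, 1.55 and 2.32 CPM.

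After AngII, 5 of 9 enzymes that fold and modify collagen were more than 1.5-fold higher in smooth muscle cells and 6 of 9 in fibroblasts, with 3 of 5 and 2 of 5 disulfide enzymes. Of the 7 stress sensors and transcription factors, 4 had enough UMIs to be measured in smooth muscle cells and 5 in fibroblasts. None of these was more than 1.5-fold higher in either class, against 8.77% and 10.5% of all genes. Ddit3 in smooth muscle cells and Eif2ak3 in fibroblasts were lower, against 15.6% and 27.6% of all genes. For so few genes these counts are near the background. A ratio is log2((CPM + 1)/(CPM + 1)), and a gene counts as higher or lower past 1.5-fold, among genes with a mean of at least 10 CPM over the groups compared. Of 36 measured members in smooth muscle cells 13 were higher in SHF_AngII than in SHF_Baseline, against 8.77% of 7004 genes, and 1 was lower, against 15.6%. In fibroblasts 10 of 38 were higher, against 10.5% of 7693 genes, and 2 were lower, against 27.6%. The median log2 ratio of the members was 0.44 in smooth muscle cells, where the median of all genes was −0.10. In fibroblasts it was 0.28, where that of all genes was −0.21.

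The collagen enzymes had a median log2 ratio of 0.60 in smooth muscle cells and 0.71 in fibroblasts, and the disulfide enzymes 0.64 and 0.57. Fkbp10, a prolyl isomerase that acts on procollagen, stood at 43.3 CPM in smooth muscle cells of SHF_Baseline, 137 CPM in SHF_AngII and 159 CPM in CNC_AngII. In fibroblasts it stood at 56.8, 221 and 214 CPM in the same order. Both AngII libraries were far above baseline in each class, with SHF_AngII over SHF_Baseline at a log2 ratio of 1.64 (interval of the ratio 1.58 to 1.75) in smooth muscle cells and 1.94 (1.89 to 2.02) in fibroblasts. All 9 collagen enzymes had ratios above 0 in both classes, and 5 of 9 in smooth muscle cells and 6 of 9 in fibroblasts passed 1.5-fold.

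The lysyl hydroxylases, which prepare collagen for cross-linking, differed between the classes. Plod2, which acts on the collagen telopeptides, was 93.3 CPM in fibroblasts of SHF_Baseline, 221 CPM in SHF_AngII and 192 CPM in CNC_AngII, a log2 ratio of 1.24 for SHF_AngII over SHF_Baseline. Its smooth muscle levels were 86.1, 109 and 124 CPM, a ratio of 0.33. Plod1 had the opposite order, with 22.5, 45.6 and 53.3 CPM in smooth muscle cells (ratio 0.99) and 39.9, 54.3 and 56.4 CPM in fibroblasts (ratio 0.43). The difference between the classes, fibroblast less smooth muscle, was 0.90 (0.82 to 0.99) for Plod2 and −0.55 (−0.71 to −0.40) for Plod1, both beyond counting error. Plod3 was higher in both, by 0.94 and 1.09.

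Among the prolyl hydroxylase subunits, which stabilise the collagen triple helix, P4ha2 went from 32.8 to 81.4 CPM in fibroblasts (ratio 1.28) and from 40.4 to 63.3 CPM in smooth muscle cells (0.64). P4ha1 had ratios of 0.34 and 0.54, below 1.5-fold in each class. P4hb, the subunit they share and itself a protein disulfide isomerase, went from 153 to 271 CPM in smooth muscle cells (0.82) and from 229 to 488 CPM in fibroblasts (1.09). Serpinh1, the collagen-specific chaperone, passed 1.5-fold in fibroblasts, from 1292 to 2060.0 CPM (0.67), and had a ratio of 0.42 in smooth muscle cells. Ppib, the cyclophilin of the collagen hydroxylation complex, stood at 0.60 and 0.71 in smooth muscle cells and fibroblasts, and its partner Crtap at 0.40 and 0.50. The collagens themselves did not all follow: Col1a1 was 706 CPM in smooth muscle cells of SHF_Baseline and 1103 CPM in SHF_AngII, and Col3a1 was 1892 and 1413 CPM.

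Of the disulfide enzymes, Pdia3, which pairs with calreticulin and calnexin on glycoproteins, had 189 CPM in smooth muscle cells of SHF_Baseline and 391 CPM in SHF_AngII. In fibroblasts it had 367 and 683 CPM, and its ratios were 1.04 and 0.90. Pdia6 was at 0.64 in smooth muscle cells and 0.57, just under 1.5-fold, in fibroblasts. Pdia4 was at 0.29 and 0.12, and Ero1l, the oxidase that recharges these isomerases, at 0.07 and 0.17, so the oxidase stayed nearer its baseline level than Pdia3 and P4hb did.

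The chaperones were uneven. Hspa5 (BiP), the central chaperone of the ER and a common readout of ER stress, was 468 CPM in smooth muscle cells of SHF_Baseline, 480.2 CPM in SHF_AngII and 459 CPM in CNC_AngII. In fibroblasts it was 884, 807 and 858 CPM. Its ratios of 0.04 and −0.13 were far inside 1.5-fold in both classes. Calr, a lectin chaperone, was higher in smooth muscle cells (440 to 691 CPM, 0.65) and at 0.49 in fibroblasts, whereas its membrane-bound relative Canx was at −0.11 and −0.39. Manf, a secreted factor that binds BiP, passed 1.5-fold in both, from 159 to 297 CPM in smooth muscle cells (0.90) and from 330.3 to 541 CPM in fibroblasts (0.71).

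Sdf2l1, a partner of BiP and its co-chaperone Dnajb11, showed the widest gap between the classes. It stood at 10.6 CPM (312 UMIs) in smooth muscle cells of SHF_Baseline, 23.9 CPM in SHF_AngII and 25.2 CPM in CNC_AngII, and at 63.0, 55.6 and 54.6 CPM in fibroblasts. Its ratio was 1.10 in smooth muscle cells and −0.18 in fibroblasts, a difference of −1.28 (−1.47 to −1.09). Its baseline level in smooth muscle cells was the low value of the 6. The co-chaperones Dnajb11 (0.44 and −0.19), Dnajc3 (0.54 and −0.08) and the exchange factor Hyou1 (0.40 and −0.24) had the same order of classes at a smaller size, while Dnajb9 was at −0.43 and −0.42. Creld2 was at 0.54 and 0.28, and Hsp90b1 (endoplasmin) at 0.45 and 0.28.

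In transport, Sec61b, a subunit of the channel through which chains enter the ER, had 258 CPM in smooth muscle cells of SHF_Baseline and 463 CPM in SHF_AngII, and 412 and 826 CPM in fibroblasts. It was 1.80-fold and 2.01-fold its baseline level, above the channel's pore subunit Sec61a1, at 1.25-fold and 1.45-fold. Kdelr3, which returns escaped chaperones to the ER, passed 1.5-fold in smooth muscle cells (0.72) and was at 0.38 in fibroblasts. The degradation genes were not past 1.5-fold upward in either class at this scaling. Herpud1, a scaffold of ER-associated degradation, was 202 CPM in fibroblasts of SHF_Baseline, 117 CPM in SHF_AngII and 106 CPM in CNC_AngII, a ratio of −0.78. It was at −0.16 in smooth muscle cells, while Sel1l was at −0.03 and −0.46, Edem1 at 0.26 and 0.46, and Selenos at 0.47 and 0.23. Syvn1, the ligase that works with Sel1l, had under 10 CPM on average in smooth muscle cells and was at −0.21 in fibroblasts.

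The sensors and transcription factors stood between a log2 ratio of −0.92 and 0.26. Ddit3 (CHOP), a late target of the PERK branch, was 72.1 CPM in smooth muscle cells of SHF_Baseline, 44.4 CPM in SHF_AngII and 39.8 CPM in CNC_AngII, a ratio of −0.69. In fibroblasts it was 58.6, 40.9 and 48.4 CPM, a ratio of −0.51. Eif2ak3 (PERK) was 21.1, 10.7 and 9.98 CPM in fibroblasts, a ratio of −0.92, and under 5 CPM in smooth muscle cells. Atf4 was at −0.17 and −0.26, Atf6 at −0.06 and −0.49, and Xbp1 at 0.26 and −0.01. Counts from the end of transcripts do not tell spliced from unspliced Xbp1. Ern1 and Trib3 stayed under a mean of 10 CPM in both classes, with 3.84 to 9.66 CPM for Ern1 and 0.647 to 5.81 CPM for Trib3, and were not counted.

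Set by promoter, the 7 measured members with an ERSE had a median ratio of 0.54 (−0.11 to 0.65) in smooth muscle cells. The 23 measured members with a promoter but no ERSE had a median of 0.44 (−0.69 to 1.10). In fibroblasts these medians were 0.10 for 8 members and 0.28 for 24. The members past 1.5-fold in smooth muscle cells thus included Calr and Pdia6, whose elements are printed above. They also included Sdf2l1, Sec61b, Ppib, P4hb, Plod1, Plod3 and P4ha2, in whose promoters the letters were not found. Fkbp10 and Manf passed too, but had no promoter to search. The members without an ERSE also include 4 with a shorter or related element printed above. In smooth muscle cells these were Pdia3 (1.04), Kdelr3 (0.72), Pdia4 (0.29) and Herpud1 (−0.16).

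**Figure D2:**
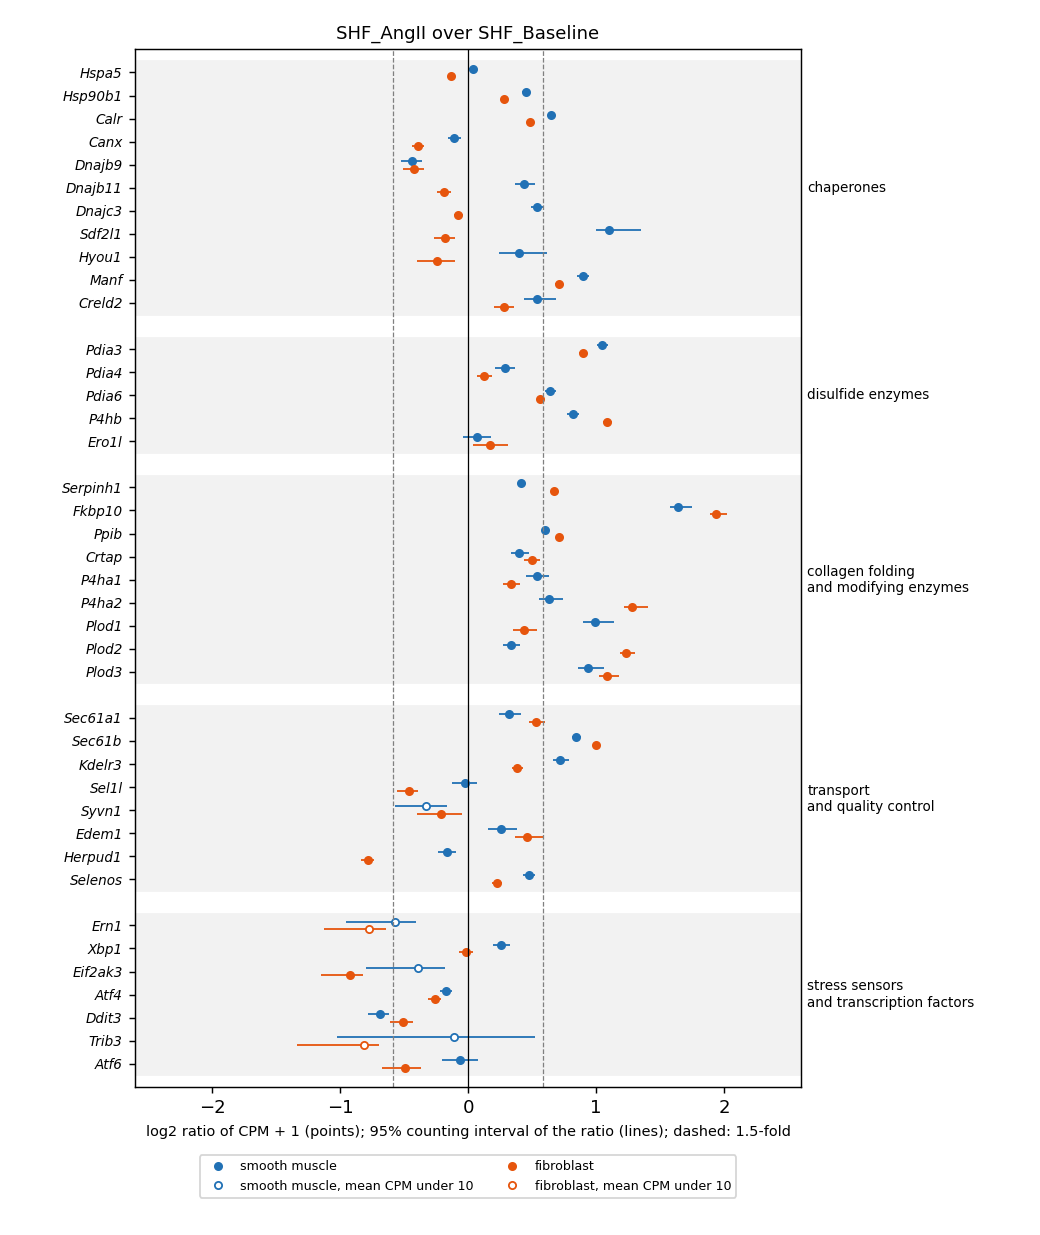
Log2 ratio of SHF_AngII over SHF_Baseline for each member in smooth muscle cells (blue) and fibroblasts (orange), with 95% counting intervals as lines and dashed lines at 1.5-fold. Open points have a mean under 10 CPM. Fkbp10 lies farthest to the right in both classes (1.64 and 1.94), the collagen enzymes all lie right of 0, and Sdf2l1 lies on opposite sides (1.10 and −0.18).

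Other measures also differed between SHF_Baseline and SHF_AngII. The median depth was 12441 and 13336.5 UMIs in smooth muscle cells, and 9534 and 15486 UMIs in fibroblasts. The summed level of 12 immediate early genes was 15287 CPM in smooth muscle cells of SHF_Baseline and 8863.5 CPM in SHF_AngII, and 19738 and 9491 CPM in fibroblasts, and the median share of mitochondrial UMIs was 7.36% and 5.44% in smooth muscle cells. In fibroblasts the 6 smooth muscle markers summed to 1248 CPM at baseline and 4018 CPM after AngII, with none at 0, and the 6 fibroblast markers to 33402 and 10658 CPM. The fibroblast markers summed to 1023 and 798 CPM in smooth muscle cells, with Pdgfra at 0 by the gate. The part of these shifts in the members' ratios was not tested. The SHF_Baseline file also lists fewer genes (18760, all with a UMI, against 32285, of which 20568 have a UMI in SHF_AngII). Part of that gap is thus genes without UMIs. As 518 shared genes also have another name there, annotation and treatment cannot be told apart in this comparison.

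The scale mattered for counts. TMM scaling raised the median of all genes from −0.10 to 0.07 in smooth muscle cells and from −0.21 to 0.06 in fibroblasts, and the share of higher genes among all those past 1.5-fold from 35.9% to 62.1% and from 27.6% to 58.4%. Under it 20 members were higher and 0 lower in smooth muscle cells, against 14.2% and 8.66% of all genes. In fibroblasts 18 were higher and 1 lower, against 21.0% and 14.9%. Members that moved from below to above 0 were Canx, Sel1l, Herpud1, Atf4 and Atf6 in smooth muscle cells, and Hspa5, Dnajb11, Dnajc3, Sdf2l1, Hyou1, Syvn1, Xbp1 and Atf4 in fibroblasts, none of them past 1.5-fold before.

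For the members, as for most genes measured, the lineage groups were near each other after AngII. For smooth muscle 0 of 36 members were higher in CNC_AngII than in SHF_AngII, against 0.917% of 6760 genes, and 0 were lower, against 1.02%. In fibroblasts 0 of 38 were higher, against 1.15% of 7205 genes, and 0 lower, against 1.05%. At such shares a list of this size may well hold none, so these counts do not set the members apart from all genes. The members' ratios ran from −0.18 to 0.22 in smooth muscle cells (median 0.06, all genes 0.00) and from −0.32 to 0.29 in fibroblasts (median −0.02, all genes 0.01). These libraries share their gene list, and SHF_AngII also serves in the comparison with baseline.

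The differences between the lineage groups were small in both classes. Smooth muscle P4hb (271 and 316 CPM in SHF_AngII and CNC_AngII, 0.22), Plod1 (0.22), Fkbp10 (137 and 159 CPM, 0.21) and Plod2 (109 and 124 CPM, 0.19) were higher in CNC_AngII by less than 1.5-fold. In fibroblasts P4ha2 (81.4 and 65.1 CPM, −0.32), Plod2 (221 and 192 CPM, −0.20), Ppib (−0.17) and Crtap (−0.17) had lower values in CNC_AngII, and 8 of 9 collagen enzymes had ratios below 0. Hspa5 was at −0.07 and 0.09 and Ddit3 at −0.15 and 0.24. Macrophage markers in smooth muscle cells summed to 1.39 CPM in SHF_AngII and 297 CPM in CNC_AngII. In fibroblasts these markers summed to 16.0 and 67.2 CPM, and their part in the small differences was not tested.

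**Figure D3:**
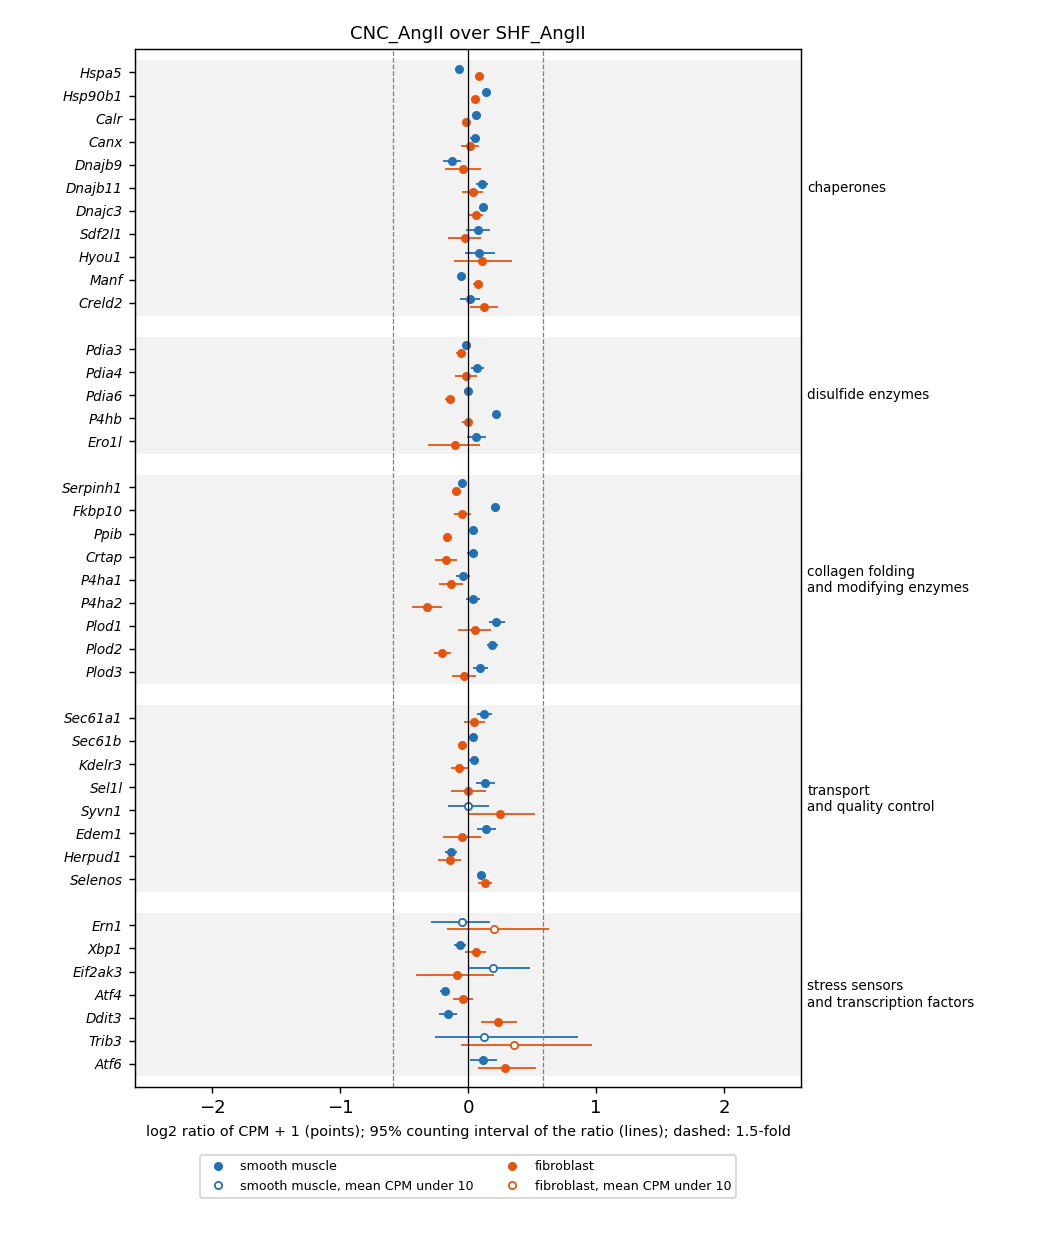
Log2 ratio of CNC_AngII over SHF_AngII for each member in smooth muscle cells (blue) and fibroblasts (orange), drawn as for the treatment with the same axis. Every filled point lies between the dashed lines at 1.5-fold, from −0.32 (P4ha2 in fibroblasts) to 0.29 (Atf6 in fibroblasts).

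On the CPM scale fibroblasts carried more of most members than smooth muscle cells of the same library. In SHF_Baseline 25 of 38 measured members were higher in fibroblasts, against 24.6% of 7733 genes, and 1 was lower, against 12%. In SHF_AngII 19 of 36 were higher, against 22.6% of 7191 genes, and 1 lower, against 15.3%. In CNC_AngII 19 of 37 were higher, against 21.7% of 7229 genes, and 1 lower, against 15%. The members' median ratio was 0.80, 0.68 and 0.59 in these libraries, where that of all genes was 0.19, 0.11 and 0.10.

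At baseline the chaperones led, with 10 of 11 past 1.5-fold, against 24.6% of all genes. Among them were Sdf2l1 (2.47), Creld2 (1.35), Dnajb11 (1.34) and Hsp90b1 (1.20). After AngII 6 of 11 passed in each library, against 22.6% of all genes in SHF_AngII and 21.7% in CNC_AngII. Sdf2l1 was at 1.19 in SHF_AngII and 1.09 in CNC_AngII. Serpinh1 stood at 0.98, 1.24 and 1.20 across SHF_Baseline, SHF_AngII and CNC_AngII, and Plod2 at 0.11, 1.02 and 0.63. Pdia6 was past 1.5-fold in all 3 (1.33, 1.25 and 1.11). Ero1l was the lower member in each library, at 34.5 CPM in smooth muscle cells and 20.6 CPM in fibroblasts of SHF_Baseline, 36.2 and 23.2 CPM in SHF_AngII and 37.8 and 21.6 CPM in CNC_AngII. Its ratios were −0.72, −0.62 and −0.78.

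TMM scaling moved the median of all genes to −0.06, −0.09 and −0.12, with 17, 12 and 8 members higher in SHF_Baseline, SHF_AngII and CNC_AngII, against 17.1%, 16.6% and 15.4% of all genes. The lead of fibroblasts in these counts thus depended on the scale, and the 8 in CNC_AngII came near the share of all genes. The higher share of all genes past 1.5-fold went from 67.2% to 48.9%, from 59.7% to 43.6% and from 59.1% to 41.2%. Under TMM these members changed to below 0: Atf4 and Dnajb9 in all 3 libraries, Edem1 in SHF_Baseline and CNC_AngII, Hyou1 in both AngII libraries, Atf6 and Plod2 in SHF_Baseline, and P4ha2 and Plod1 in CNC_AngII.

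In macrophages of CNC_AngII 8 of the 9 collagen enzymes were more than 1.5-fold lower than in fibroblasts, and Plod1 was higher. Of the 11 chaperones 4 were lower, 1 was higher and 6 were not past 1.5-fold. Against smooth muscle cells 4 of 36 members were higher, with 34.8% of 7574 genes, and 13 were lower, with 24.5%. Against fibroblasts 2 of 37 were higher, with 28.4% of 7753 genes, and 22 lower, with 24.3%. The median ratio of the members was −0.21 against smooth muscle cells (all genes 0.20) and −0.74 against fibroblasts (all genes 0.10).

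Serpinh1, Plod2, Kdelr3 and Fkbp10 were near the floor in macrophages. Serpinh1 had 13.5 CPM (278 UMIs) in macrophages against 1935 CPM in fibroblasts, or 0.695% of that level. Plod2 (32 UMIs) stood at 0.805%, Kdelr3 (48 UMIs) at 1.10% and Fkbp10 (54 UMIs) at 1.22%. The collagens, which macrophages are not known to make in quantity, stood at 0.792% (Col1a1), 0.769% (Col1a2) and 0.695% (Col3a1), and the fibroblast marker Dcn at 0.328%. At these levels a gene's own expression and RNA carried over from other cells cannot be told apart. The other collagen enzymes lay above that level, with P4ha2 at 10.9%, Crtap at 18.0%, P4ha1 at 34.1% and Plod3 at 44.3% of fibroblasts. Ppib stood at 35.6%, with 526 CPM in macrophages.

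Sdf2l1, Plod1, Edem1, Atf6 and Canx were above their fibroblast level. Sdf2l1 was 155 CPM in macrophages, 54.6 CPM in fibroblasts and 25.2 CPM in smooth muscle cells, ratios of 1.49 and 2.58. Plod1 was 123, 56.4 and 53.3 CPM, ratios of 1.11 and 1.19, which sets it apart from Plod2 in the same cells. Edem1, which trims mannose from glycoproteins for degradation, was 62.9, 41.7 and 39.5 CPM, past 1.5-fold against smooth muscle cells (0.66) and just under it against fibroblasts (0.58). Canx, at 205, 181 and 135 CPM, passed 1.5-fold against smooth muscle cells only (0.59 and 0.18), and Atf6 was 26.0, 18.4 and 20.3 CPM. Hspa5 and Calr lay between the other classes, Hspa5 with 666 CPM against 858 CPM in fibroblasts and 459 CPM in smooth muscle cells, and Calr with 839 CPM against 935 and 719 CPM. Under TMM scaling 2 members were higher and 17 lower than in smooth muscle cells, against 27.5% and 29.9% of all genes, the median of all genes moved to −0.03 and the higher share of all genes from 58.7% to 48.0%. There Calr, Creld2, Manf, Pdia3, Pdia4, Sec61b, Sel1l and Trib3 moved from above to below 0. Against fibroblasts no member changed side.

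**Figure D4:**
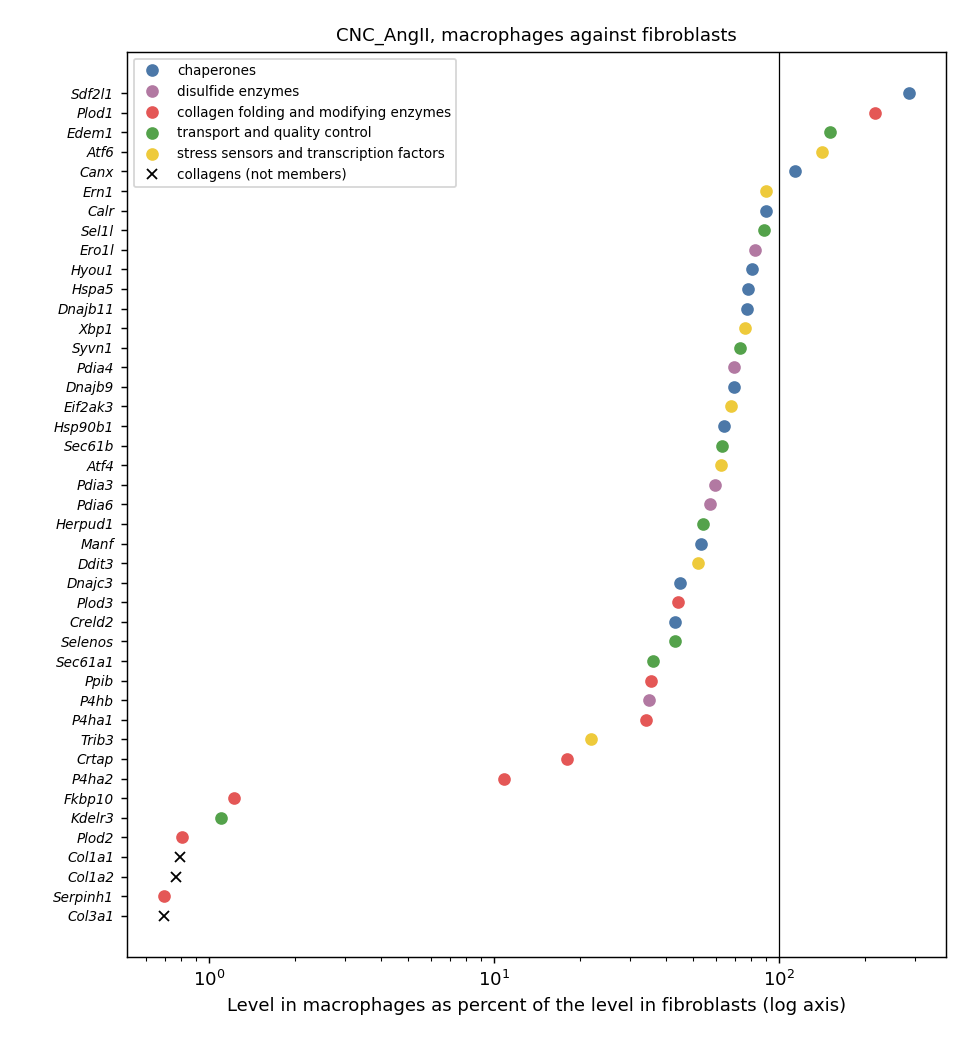
Level of each member in macrophages as a percent of its level in fibroblasts of CNC_AngII (log axis), coloured by role, with Col1a1, Col1a2 and Col3a1 as crosses. Serpinh1, Plod2, Kdelr3 and Fkbp10 lie with the collagens near 1%, and Sdf2l1 (284%) and Plod1 (218%) lie to the right of the line at 100%.

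Among fibroblasts of one library, cells with Cthrc1, a marker of matrix-producing fibroblasts, had more of the collagen enzymes. In SHF_AngII 4 of 38 members were higher in the 1643 cells with a Cthrc1 UMI than in the 994 without, against 2.68% of 7226 genes, and 0 were lower, against 3.72%. In CNC_AngII, with 466 and 369 cells, 4 of 37 were higher, against 3.46% of 7247 genes, and 1 lower, against 5.33%. In both libraries the higher members were P4ha2 (0.98 and 1.17), Plod2 (0.71 and 0.70), Fkbp10 (0.63 and 0.60) and a further collagen enzyme, Serpinh1 in SHF_AngII (0.59, and 0.58 in CNC_AngII) and Plod3 in CNC_AngII (0.68, and 0.52 in SHF_AngII). The lower member in CNC_AngII was Ddit3 (−0.64, and −0.20 in SHF_AngII). Cells with a Cthrc1 UMI were deeper, with medians of 19235 against 10656.5 UMIs in SHF_AngII and 15157.5 against 8732 in CNC_AngII, and with every cell thinned to 2000 UMIs 5 members were higher in each library, with 0 lower in SHF_AngII and 2 in CNC_AngII. After thinning 4.30% of all genes were higher and 6.06% lower in SHF_AngII, and 11.3% and 12.7% in CNC_AngII, so the 5 of 37 members there were near the background. TMM scaling gave 5 higher in each library, against 3.43% and 4.27% of all genes, and moved the higher share of all genes from 41.9% to 54.2% in SHF_AngII.

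The other markers split the members little, and few of all genes passed 1.5-fold either, so the counts below do not set the members apart. Smooth muscle cells with Spp1 (osteopontin), a marker of modulated cells, numbered 458 of 4652 in SHF_AngII and 1352 of 6373 in CNC_AngII. In SHF_AngII 0 of 36 members were higher in them, against 1.25% of 6703 genes, and 0 lower, against 0.955%. In CNC_AngII 0 of 36 were higher, against 1.99% of 6799 genes, and 0 lower, against 0.529%. The widest ratios were Fkbp10 in SHF_AngII (0.44) and Hspa5 in CNC_AngII (−0.29). Fibroblasts with Pi16, a marker of adventitial progenitor-like cells, were 3388 against 549 without in SHF_Baseline, where 1 of 38 members (Sdf2l1, 0.79) was higher, against 4.95% of 7915 genes, and 1 (Ddit3, −0.67) lower, against 5.85%. In SHF_AngII, with 2373 and 264 cells, 0 of 37 were higher, against 2.72% of 7348 genes, and 0 lower, against 6.14%. TMM scaling moved the higher share of all genes from 30.7% to 45.9% there, again with 0 members past 1.5-fold.

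Cells were also ranked by the share of their UMIs from Col1a1, Col1a2 and Col3a1 and cut into 3 equal parts, and the highest part was set against the lowest. In smooth muscle cells of SHF_AngII 11 of 36 members were higher in the collagen-rich part, against 4.56% of 6755 genes, and 0 lower, against 2.26%. They were Fkbp10 (1.03), Plod2 (0.82), Crtap (0.75), Plod3 (0.69), Plod1 (0.67), Serpinh1 (0.66), Ppib (0.62) and P4ha1 (0.60), with Kdelr3 (0.95), P4hb (0.93) and Edem1 (0.69). So 8 of the 9 collagen enzymes passed, and 0 of the 11 chaperones, where Hspa5 was at 0.01. The collagen-rich cells were also deeper, with a median of 17239.5 against 9941.5 UMIs. With every cell thinned to 2000 UMIs 12 members passed, against 6.70% of all genes, and with the stricter cell filter 2, against 3.55%.

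In smooth muscle cells of SHF_Baseline 1 of 37 was higher (Hyou1, 0.59), against 2.3% of 7145 genes, and 0 lower, against 0.364%. In CNC_AngII 2 of 36 were higher (Plod2, 0.63, and P4hb, 0.62), against 2.14% of 6823 genes, and 1 lower (Sdf2l1, −0.68), against 1.73%. The collagen enzymes had a median of 0.24 in SHF_Baseline, 0.67 in SHF_AngII and 0.30 in CNC_AngII. The same cut on collagen thus gave different sizes in these libraries, and the difference was not tested. The gap in depth between the parts differed too. The median of the collagen-rich part was 12911.5 UMIs against 11793 in SHF_Baseline, and 15820 against 10185.5 in CNC_AngII.

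In fibroblasts of SHF_AngII 7 of 38 were higher, against 4.05% of 7216 genes, and 1 lower, against 4.57%. P4ha2 had the widest ratio of any member in these splits (1.51), followed by Fkbp10 (0.91), Serpinh1 (0.85), Plod2 (0.85) and P4ha1 (0.73), with P4hb (0.68) and Kdelr3 (0.62). In SHF_Baseline 3 of 38 were higher (Serpinh1, 0.80, Plod1, 0.66, and Kdelr3, 0.61), against 4.77% of 7906 genes, and 0 lower, against 5.5%. In CNC_AngII 4 of 37 were higher (Plod2, 0.92, Fkbp10, 0.67, P4ha2, 0.61, and Serpinh1, 0.59), against 3.42% of 7195 genes, and 2 lower, against 3.29%. Serpinh1 thus passed 1.5-fold in each of the 3 fibroblast groups. The median depth of the collagen-rich part was 9126.5 UMIs against 10140.5 in SHF_Baseline. It was 19731 against 11616 in SHF_AngII and 14863 against 9091.5 in CNC_AngII, and the part of depth in these ratios was not tested.

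Sdf2l1 ran against the collagens in the fibroblast groups and in smooth muscle cells of CNC_AngII. It was lower in collagen-rich fibroblasts of SHF_AngII (−0.62) and CNC_AngII (−0.89), and at −0.41 in those of SHF_Baseline. In smooth muscle cells it was lower in CNC_AngII and at 0.24 and 0.23 in SHF_Baseline and SHF_AngII. Ddit3 was the other lower member in fibroblasts of CNC_AngII (−0.71) and was at −0.50 in SHF_AngII. With stricter gates 0 members were lower in smooth muscle cells of CNC_AngII and in fibroblasts of SHF_AngII. In fibroblasts of CNC_AngII 1 was lower. TMM scaling and a pseudocount of 10 CPM also gave 0 lower in fibroblasts of SHF_AngII. Macrophage markers summed to 297 CPM in smooth muscle cells of CNC_AngII, and Sdf2l1 was 155 CPM in macrophages. The part of RNA carried over from macrophages was not tested. A cell with a larger share of collagen has by construction less room for other UMIs, and the median of all genes was between −0.13 and 0.04 in these 6 splits. TMM scaling moved the higher share of all genes from 46.4% to 65.9%, from 46.9% to 63.9% and from 50.9% to 63.5% in fibroblasts of SHF_Baseline, SHF_AngII and CNC_AngII, with 6, 9 and 5 members higher, against 7.04%, 5.54% and 4.34% of all genes. In smooth muscle cells of CNC_AngII it moved from 55.3% to 66.2%, with 4 members higher, against 2.81%.

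**Figure D5:**
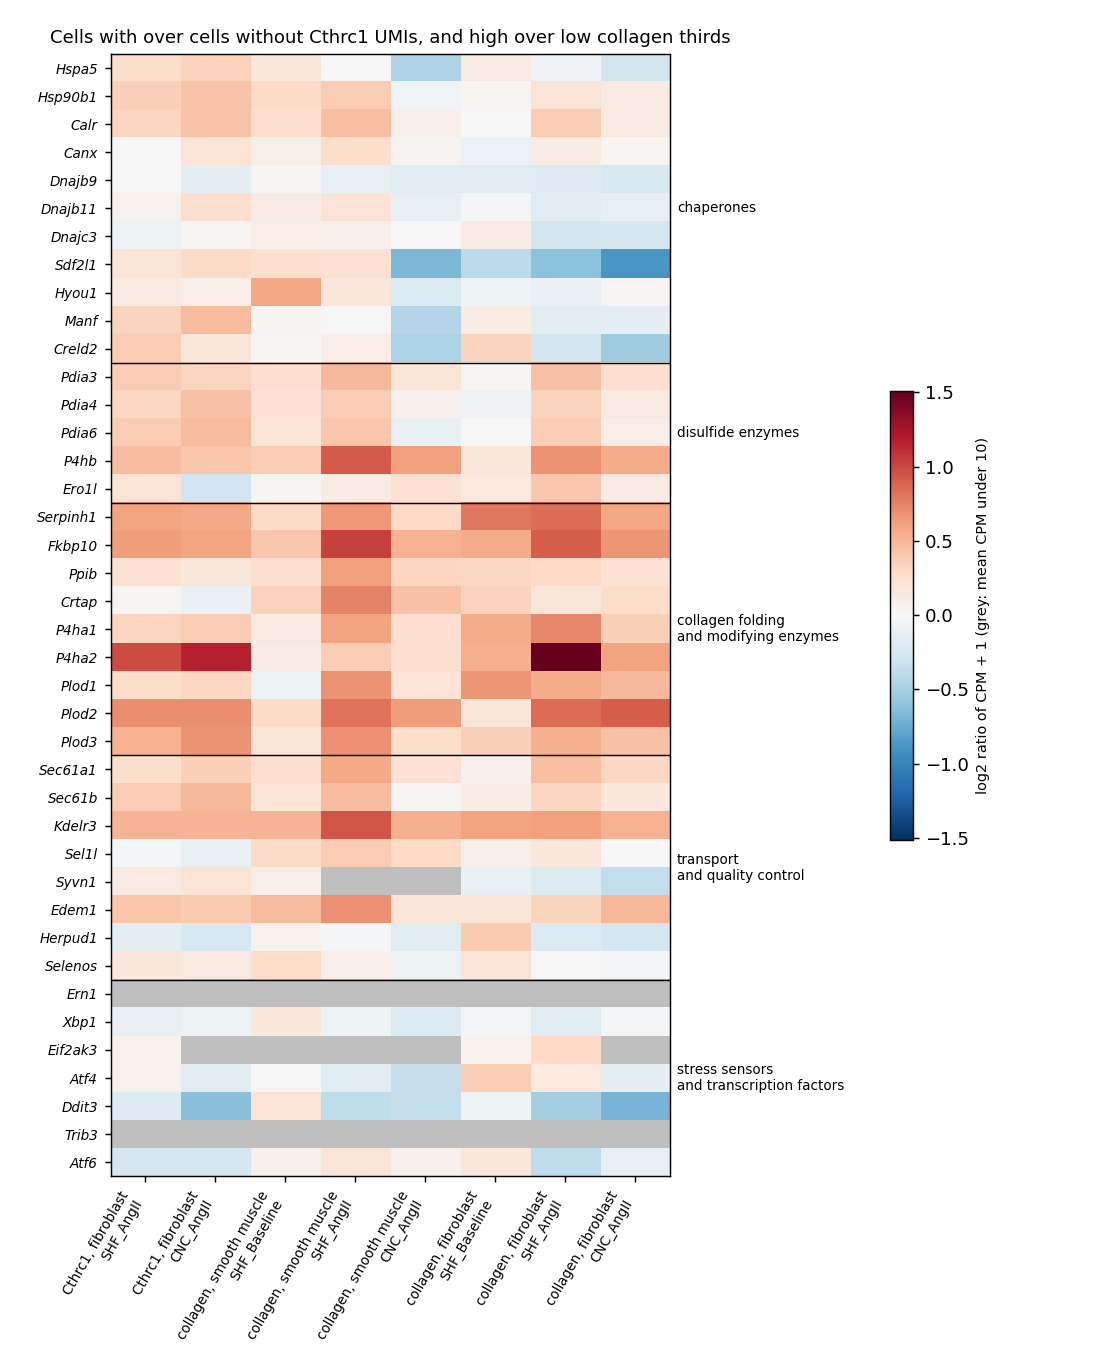
Log2 ratio of each member (rows of the colour map, grouped by role) within 1 class of 1 library: cells with over cells without Cthrc1 UMIs in fibroblasts, and the most over the least collagen-rich of 3 equal parts in each class. Red is higher, blue is lower and grey marks a mean under 10 CPM. The band of collagen enzymes is the reddest, with P4ha2 at 1.51 in fibroblasts of SHF_AngII, and Sdf2l1 is blue in 4 of the 6 collagen splits.

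A further 111 genes of the pathway gave the setting for the members. After AngII 32 of 102 measured were higher and 3 lower in smooth muscle cells (median 0.37), against 8.77% and 15.6% of all genes. In fibroblasts 26 of 103 were higher and 7 lower (median 0.20), against 10.5% and 27.6%. The higher counts include Mia2, whose baseline level is not comparable, as given below. The other ER folding enzymes had 12 of 26 and 8 of 25 higher, and the genes of translocation and glycosylation 10 of 25 and 6 of 25. ER-associated degradation had 1 of 12 and 0 of 12 higher, and the other stress regulators 2 higher and 3 lower of 18 in smooth muscle cells and 4 higher and 4 lower of 20 in fibroblasts. The counts for degradation, and those for the stress regulators in smooth muscle cells, are near the shares of all genes.

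Fkbp11, another prolyl isomerase of the ER, went from 14.8 to 71.7 CPM in smooth muscle cells (2.20) and from 39.1 to 205 CPM in fibroblasts (2.36). Ssr4, a subunit of the translocon-associated complex, went from 298 to 753 CPM in smooth muscle cells (1.33). Pdia5, a disulfide isomerase, reached 45.1 CPM in fibroblasts of SHF_AngII (1.94). Atf3, a stress and immediate early factor, was lower in both classes (−0.81 and −1.60), as was Ppp1r15a, which reverses the PERK signal (−0.59 and −0.94). Mia2, a cargo factor of ER exit, had the widest value (4.84 and 4.75), but the SHF_Baseline file lists an alternative name of that locus as a gene of its own, so its level there is not comparable.

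Between the lineage groups, 0 of 102 of these genes were higher and 1 lower in CNC_AngII than in SHF_AngII in smooth muscle cells (Atf5, −0.63), against 0.917% and 1.02% of all genes. In fibroblasts 1 of 104 was higher (Nupr1, a stress-induced regulator, 0.93) and 1 lower (P4ha3, −0.68), against 1.15% and 1.05%. In macrophages 20 of 26 other folding enzymes were lower than in smooth muscle cells, against 24.5% of all genes. They were led by P3h4 (−5.58) and P3h3 (−4.78), both linked to collagen, and by Ppic (−4.57). Erp29, a general chaperone, was higher (1.72).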

How the data were processed

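The deposited files hold raw UMI counts (whole numbers per gene and cell barcode, not normalized), made from 10x Chromium single-cell libraries of the transcripts' ends, per the labels' protocols. The submitters' processing notes name fastp, STAR 2.5, HTSeq 0.6.1 and the build mm10, with no order, and the gene annotation is not given in the sources used here. SHF_Baseline lists 18760 genes and the AngII files 32285, and 518 of the 18112 shared genes were matched through a synonym (Selenos is Vimp in the baseline file). The shared genes hold 99.6% to 99.9% of the UMIs.

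A cell was kept if 500 or more genes were detected in it and no more than 10% of its UMIs were mitochondrial (8370, 9298 and 10180 cells in SHF_Baseline, SHF_AngII and CNC_AngII), after removal of doublets marked by Scrublet in scanpy 1.11.5 (211, 194 and 293 cells, 1.98% to 2.75% of those scored). Cells in both the fibroblast and the macrophage gate (1, 2 and 10) were left out of each. UMIs were summed over a class of a library and scaled to CPM of all its UMIs, those of genes not shared included. Ratios used a pseudocount of 1 CPM, and genes with a mean of at least 10 CPM over both groups were measured. Intervals are exact Poisson for levels and exact conditional binomial for ratios, at 95%. Those of a difference between classes are normal approximations from the counts. Only the intervals of ratios were checked on simulated data, which held Poisson counting error alone. With 1 library per group no test was run. The members, lists and splits were chosen with earlier results of these data known. All members may be named, and of the other pathway genes those with the 3 highest and 3 lowest ratios in a comparison. In GENCODE M21, exons of 4 of the 40 members (Hsp90b1, Manf, Pdia4 and Plod3) overlap another gene on the same strand, and their counts are less certain. The 13 alternative settings include TMM factors from edgeR 4.0.16. Promoters of 6 members and the proteins were not used here.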

Additional observations from a re-analysis of the deposited data

Results flagged for a closer look

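Sdf2l1 moved opposite ways in the classes under the same treatment. SHF_AngII over SHF_Baseline was 1.10 on the log2 scale in smooth muscle cells, past 1.5-fold, and −0.18 in fibroblasts, below 1.5-fold. Fibroblast less smooth muscle was −1.28 (counting interval −1.47 to −1.09). With 1 library per group the difference was not tested. Under TMM scaling the fibroblast ratio was 0.10, so the opposite signs did not hold there, and over all settings it ran from −0.19 to 0.10 in fibroblasts and from 0.72 to 1.28 in smooth muscle cells.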

How the results depend on the processing

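Of 360 ratios of members under 13 alternatives (4680 values), 3683 moved by less than their counting interval, 997 by more, and 0 values past 1.5-fold changed sign. Of 520 counts of members past 1.5-fold, 453 stayed within 1.5 times, and the 67 others follow. The cause was not tested, except that a minimum of 50 CPM leaves fewer genes and no minimum adds some.

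For AngII over baseline in smooth muscle cells, the lower count was 2 with the stricter cell filter (which leaves 119 baseline cells), 0 after thinning to 2000 UMIs per cell and 0 with TMM scaling, which gave 20 higher. In fibroblasts TMM gave 18 higher and 1 lower, and the lower count was 4 with no minimum and 1 with a minimum of 50 CPM. For fibroblast over smooth muscle cells, the lower count was 0 in SHF_Baseline and SHF_AngII with the stricter filter, with a pseudocount of 10 CPM and with a minimum of 50 CPM, 0 in CNC_AngII with that minimum, and 0 in SHF_AngII with totals without mitochondrial and ribosomal protein genes. TMM gave 12 higher in SHF_AngII and 8 in CNC_AngII. For macrophages over smooth muscle cells 2 were higher with the stricter filter, with TMM and with a pseudocount of 10 CPM, and over fibroblasts 4 were higher after thinning.

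Within classes, thinning gave 1 higher for Spp1 in SHF_AngII. For Cthrc1 in CNC_AngII the lower count was 0 with a pseudocount of 10 CPM, with means of per-cell shares and with stricter gates, and 2 after thinning and with no minimum. For Pi16 in SHF_Baseline the higher count was 2 with the stricter filter (0 lower), with per-cell shares and with stricter gates, and 3 after thinning. In SHF_AngII it was 1 with per-cell shares and 2 after thinning.

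For the collagen split in smooth muscle cells, SHF_Baseline had 0 higher with the looser filter, without mitochondrial and ribosomal protein genes, with TMM, with a pseudocount of 10 CPM and with a minimum of 50 CPM, 2 with no minimum, and 4 higher and 1 lower after thinning. SHF_AngII had 2 higher with the stricter filter and 1 lower after thinning. CNC_AngII had 1 higher and 4 lower with the stricter filter, 4 higher with TMM, 0 lower with a pseudocount of 10 CPM and a minimum of 50 CPM, 4 higher and 0 lower after thinning, and 1 higher and 0 lower with stricter gates. In fibroblasts, SHF_Baseline had 5 higher with the stricter filter, 6 with TMM and 1 with a pseudocount of 10 CPM, and 1 lower with no minimum. SHF_AngII had 0 lower with TMM, a pseudocount of 10 CPM and stricter gates, and 2 lower after thinning. CNC_AngII had 2 higher with the stricter filter, 9 higher and 0 lower after thinning, 1 lower with stricter gates and 4 lower with no minimum. In all 12 marker and collagen splits, thinning also raised the share of all genes past 1.5-fold in each direction, in this last split from 3.42% to 13.4% higher and from 3.29% to 13.2% lower.

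The stricter filter left too few smooth muscle cells of SHF_Baseline for a collagen split, so it gave no value there. No paired analysis was possible because each group has 1 library. Depth limits Trib3, Ern1, Eif2ak3 and Syvn1, which had few UMIs in some classes, and the macrophage levels of Plod2, Kdelr3 and Fkbp10.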
